A study of Mus musculus with 12 samples.

Results

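The desmosome genes described here are 10 of the 24537 genes in a mouse expression table, taken as the rows whose symbol is Dsc2, Dsc3, Dsg2, Dsg3, Dsp, Jup, Pkp1, Pkp2, Pkp3 or Perp. Desmosomes are button-like junctions that rivet neighbouring epithelial cells together and anchor the keratin network at the cell border. Their adhesive part is made of desmocollins and desmogleins, cadherins that bind across the gap between cells. Inside the cell, the armadillo proteins plakoglobin and the plakophilins bind the cadherin tails, and desmoplakin links them to keratin. Stratified epithelia such as epidermis exchange the members of each family between their basal and upper layers, and simple epithelia and heart muscle use a smaller set.

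RNA sequencing was done on 12 primary cultures, 3 in each of 4 groups, all from mice of the strain Pdgfra-creERxLSL-tdTomato, in which the Pdgfra promoter, active in mesenchymal cells, drives an inducible Cre and Cre switches on a red reporter. The sources used here give no age for the mice. Pdgfra (+) ADSCs are stromal cells of subcutaneous adipose tissue, grown in DMEM with 10% FBS. In vitro iSEPs, induced stratified epithelial progenitor cells, were converted from such ADSCs in culture, and in vivo iSEPs were cultured from epithelial tissue that had formed from mesenchyme in the animal. Primary keratinocytes came from back skin, and these last 3 groups shared a keratinocyte medium without serum. The medium therefore cannot be told apart from the conversion in the iSEP comparisons with ADSCs, nor from the tissue of origin in that of keratinocytes with ADSCs, and the 3 comparisons with ADSCs share the same 3 ADSC libraries. As background, iSEPs are made by giving mesenchymal cells the genes of epithelial transcription factors, ΔNp63α and GRHL2 among them. Each group holds cells of mice 1, 2 and 3, and a library is 1 culture of many cells, so that fewer cells of a type and less RNA per cell cannot be told apart.

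Levels are FPKM, reads scaled to transcript length and library size, which may be compared between genes because they are per length. Differences between groups are on the scale of log2(FPKM + 1), which understates the change of low genes. They come with their standard error (SE), a 95% confidence interval where given, and an adjusted p from a limma fit over 12364 genes, and 0.05 is the threshold on that adjusted p below which a gene counts as called. Between 20990000 and 27750000 reads per library fell in listed genes. The summed level of 6 basal keratinocyte markers was 12.2 to 13.6 FPKM in ADSCs and 10200 to 23200 FPKM in the 9 epithelial libraries, and that of 6 stromal markers was 5150 to 5870 FPKM in ADSCs and 25.3 to 225 FPKM in the epithelial libraries. Summed markers of melanocytes (1.57 to 4.71 FPKM), endothelial cells (0.571 to 9.59 FPKM) and immune cells (2.36 to 55.7 FPKM) were low beside the stromal sum of ADSCs and the basal sum of epithelial libraries. The immune sum was 5.63 to 55.7 FPKM in ADSCs and 8.64 to 14.1 in in vitro iSEPs. It was 9.92 to 22.4 FPKM in the in vivo iSEPs and 2.36 to 4 in keratinocytes. Within its group, the in vivo culture of mouse 3 stood apart, with Krt5 at 3410 FPKM against 8690 to 11300 in the other 8 epithelial libraries, and Krt8 at 103 FPKM against 0.159 and 0.166 in the in vivo iSEPs of mice 1 and 2. Krt5, Krt8 and, below, Krt18, Epcam, Krt1, Acta1 and Klf4 were named after their values were seen. The main results that rest on that library are given with and without it.

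The table holds 1 entry per gene, so splice isoforms were not analysed here, and the choice between paralogues within a family takes their place. The 4 desmosomal cadherin members lie in 1 gene cluster, and the others are dispersed. In mm10, Dsp spans chr13:38151294-38198577 (+), Jup chr11:100368856-100397790 (-), Pkp1 chr1:135871394-135919207 (-), Pkp2 chr16:16213345-16272712 (+), Pkp3 chr7:141079769-141090510 (+) and Perp chr10:18845071-18857072 (+). These spans cover the transcript from start to end, and the reads counted were those in its exons, untranslated parts included.

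Promoters of 2 of the 10 members, Dsp and Jup, were in the RefSeq promoter table (GRCm38.p6). They are shown because no other member had a window in that table, and the base before the transcription start comes last. Capitals mark matches to the Klf motif, the GC-rich box that Krüppel-like factors bind, on either strand.
Dsp, chr13:38151044-38151293 (+): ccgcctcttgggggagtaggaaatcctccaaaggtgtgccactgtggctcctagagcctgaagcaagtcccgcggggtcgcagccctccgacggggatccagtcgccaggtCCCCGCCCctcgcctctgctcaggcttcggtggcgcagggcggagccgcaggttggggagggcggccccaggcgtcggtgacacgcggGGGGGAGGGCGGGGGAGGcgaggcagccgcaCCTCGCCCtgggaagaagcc
Jup, chr11:100397791-100398040 (-): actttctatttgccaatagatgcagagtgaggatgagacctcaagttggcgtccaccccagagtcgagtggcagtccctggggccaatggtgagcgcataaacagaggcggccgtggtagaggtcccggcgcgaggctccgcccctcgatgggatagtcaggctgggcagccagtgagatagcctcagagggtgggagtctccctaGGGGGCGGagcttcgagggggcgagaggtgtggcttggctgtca
The Dsp window had a GC content of 72.4% and held 5 Klf matches, 3 of them overlapping, and the Jup window had a GC content of 62% and held 1. Searched with the letters GGGNGNGG on both strands, 45.9% of 32851 windows of the same length held a Klf match, and the median GC content of all windows was 52.4%. The other motifs searched, with both strands and overlaps allowed, were AP-1 (TGANTCA, in 6.75% of windows), Grhl (AACNGGTT, 1.79%), a p53 family pair (CATG, any 6 bases and CATG again, 0.49%) and the E-box of Snai and Zeb factors (CAGGTG, 17.2%). These letters were in neither window. A match describes the sequence and is not a binding site.

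Against ADSCs, the cells of all 3 epithelial groups carried far higher levels of 9 of the 10 desmosome genes, and the plakophilin Pkp2 was the exception. In in vitro iSEPs 9 of the 10 members were higher and Pkp2 was lower, where 32.1% of the genes tested were called higher and 21.7% lower. The same 9 were higher in the in vivo iSEPs (27.6% of genes higher, 20% lower) and in keratinocytes (32.8% higher, 20.7% lower), and Pkp2 was called in neither. Called in either direction were 53.8%, 47.6% and 53.5% of genes in these 3 comparisons. For the 9 genes no epithelial library overlapped with an ADSC library, which on the higher side held for 37.7% of all genes in in vitro iSEPs, for 32% in the in vivo iSEPs and for 43.6% in keratinocytes. On the lower side, where Pkp2 did not overlap in in vitro iSEPs, these shares were 26.1%, 22.2% and 25.9%. The median difference over the 10 members was 7.26 in in vitro iSEPs, 6.85 in the in vivo iSEPs and 6.85 in keratinocytes, beside medians of 0.148, 0.136 and 0.184 over all genes tested. Scaling the libraries to a common median took the medians of all genes to -0.013, 0.016 and -0.007, and the share of higher genes among those called from 59.7%, 57.9% and 61.4% to 47.3%, 48.1% and 46.8%, while the calls of the 10 members were kept. All 10 passed the filter on low values, but 7 of them were under 1 FPKM in every ADSC library and passed only through the epithelial groups, so these counts are a description.

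**Figure D1:**
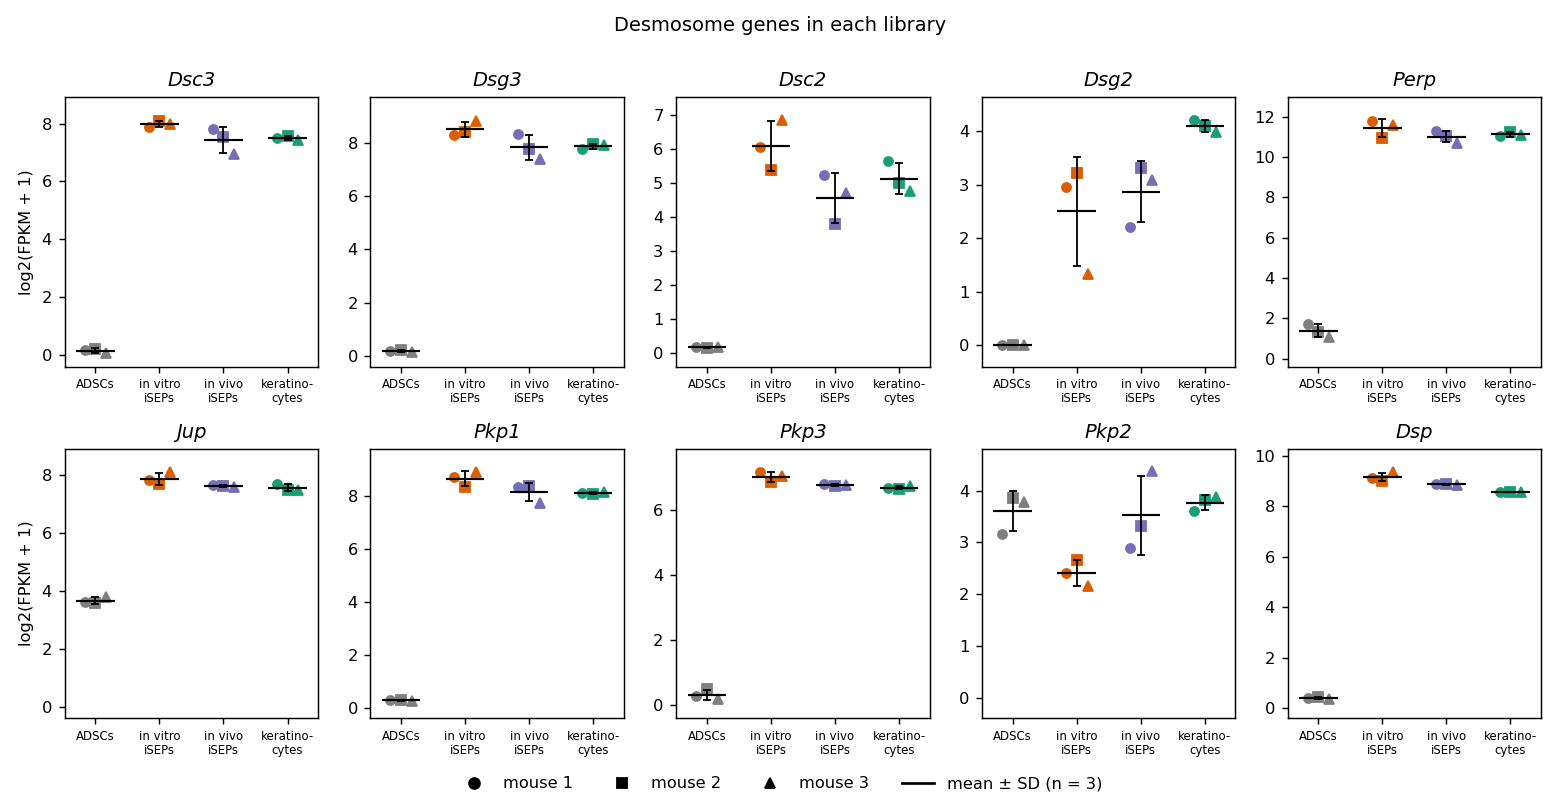
Level of each of the 10 desmosome genes in each library, as log2(FPKM + 1) on the vertical axis, for the 4 groups on the horizontal axis. Symbols mark the mouse, and lines and bars give the mean ± SD (n = 3). ADSC libraries lie below all epithelial libraries for every gene but Pkp2, in which the in vitro iSEPs (3.48 to 5.31 FPKM) are the lowest group.

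Among the cadherins, desmocollin 3 and desmoglein 3, which as background mark the lower layers of stratified epithelia, were the leading genes. Dsc3 was at 0.136, 0.161 and 0.047 FPKM in the ADSCs of mice 1, 2 and 3, 236, 273 and 254 in in vitro iSEPs, 223, 183 and 122 in the in vivo iSEPs and 180, 188 and 172 in keratinocytes. The ADSC values rest on 7 to 25 reads, and the differences from ADSCs were 7.84, 7.27 and 7.34 (SE 0.179; limma adjusted p 1.46e-10, 2.11e-10 and 1.65e-10), higher in 3 of 3 libraries each time. Dsg3 was at 0.145, 0.174 and 0.104 FPKM in ADSCs, 311, 333 and 453 in in vitro iSEPs, 320, 219 and 168 in the in vivo iSEPs and 218, 246 and 240 in keratinocytes. Its 3 in vitro libraries lay above the keratinocyte libraries, while the in vivo libraries lay on both sides of them. Against ADSCs the differences in Dsg3 were 8.31, 7.65 and 7.69 (SE 0.209; adjusted p 1.96e-10, 3.95e-10 and 3.36e-10).

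Desmocollin 2 and desmoglein 2 are the widely expressed forms, the only ones that simple epithelia and heart muscle use. Dsc2 was at 0.129, 0.118 and 0.14 FPKM in ADSCs, 65.7, 40.2 and 113 in in vitro iSEPs, 36.4, 12.7 and 24.8 in the in vivo iSEPs and 48.5, 30.7 and 25.9 in keratinocytes. It was higher than in ADSCs by 5.91, 4.39 and 4.95 (SE 0.403; adjusted p 4.08e-07, 5e-06 and 1.69e-06) in the same order of groups, and it varied widely between the mice of both iSEP groups. Dsg2 was near absent in ADSCs, with 1 or 2 reads per library (0.005, 0.006 and 0.012 FPKM). It reached 6.81, 8.29 and 1.53 FPKM in in vitro iSEPs, 3.67, 8.93 and 7.53 in the in vivo iSEPs and 17.6, 16.3 and 14.8 in keratinocytes. Every keratinocyte library was thus above every iSEP library, and in vitro mouse 3 was the lowest of the 9. The differences of Dsg2 from ADSCs ran from 2.5 in in vitro iSEPs through 2.87 to 4.09 in keratinocytes (SE 0.423; adjusted p 0.000474, 0.000194 and 1.12e-05).

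Plakoglobin and the plakophilins form the inner layer that ties cadherins to desmoplakin. Jup, which encodes plakoglobin and also serves adherens junctions, was already present in ADSCs at 11.3, 10.9 and 12.9 FPKM. It was at 227, 207 and 275 FPKM in in vitro iSEPs, 202, 196 and 192 in the in vivo iSEPs and 207, 178 and 180 in keratinocytes. By mean FPKM this was 20.2-fold, 16.8-fold and 16.1-fold higher than ADSCs, with differences of 4.22, 3.96 and 3.90 (SE 0.122; adjusted p 5.49e-10, 9.99e-10 and 9.53e-10), the smallest of the 9 rises on the ratio scale. Pkp1, the plakophilin of stratified epithelia, went from 0.223, 0.22 and 0.208 FPKM in ADSCs to 423, 325 and 479 in in vitro iSEPs, 324, 334 and 215 in the in vivo iSEPs and 280, 267 and 285 in keratinocytes. Its differences of 8.38, 7.88 and 7.84 (SE 0.177; adjusted p 8.62e-11, 1.43e-10 and 1.62e-10) were close to those of Dsg3. Pkp3, found in simple and stratified epithelia alike, was at 0.222, 0.41 and 0.139 FPKM in ADSCs, 141, 113 and 130 in in vitro iSEPs, 110, 104 and 107 in the in vivo iSEPs and 101, 98.6 and 104 in keratinocytes. The differences of Pkp3 from ADSCs were 6.68, 6.43 and 6.35 (SE 0.109; adjusted p 1.41e-11, 1.86e-11 and 2.08e-11).

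Pkp2, the plakophilin of simple epithelia and heart muscle, behaved differently. It was at 7.92, 13.5 and 12.8 FPKM in ADSCs, 4.33, 5.31 and 3.48 in in vitro iSEPs, 6.41, 9.02 and 19.8 in the in vivo iSEPs and 11.1, 13.2 and 13.6 in keratinocytes. The in vitro libraries were below all libraries of the other 3 groups, and in vivo mouse 3 was the highest of the 12. Pkp2 was lower in in vitro iSEPs than in ADSCs by a difference of -1.19 (SE 0.328, adjusted p 0.01; 2.61-fold by mean FPKM), in 3 of 3 libraries. For in vivo iSEPs the difference was -0.07 (95% interval -0.79 to 0.65, adjusted p 0.877), and -0.49 without mouse 3 of that group (adjusted p 0.104). For keratinocytes it was 0.17 (-0.56 to 0.89, adjusted p 0.693), and -0.03 (adjusted p 0.959) with libraries scaled to a common median. Neither interval shows the level to be equal. The call in in vitro iSEPs was lost when mouse 2 was left out of all groups (-1.18, adjusted p 0.0957).

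Markers of other cell types moved with Pkp2 in part, and their share in it was not tested. The 6 simple epithelial markers (Krt8, Krt18, Krt7, Krt19, Epcam and Cldn4) summed to 22.1 to 48 FPKM in ADSCs, 241 to 493 in in vitro iSEPs, 71.4, 51.4 and 719 in the in vivo iSEPs of mice 1, 2 and 3, and 730 to 763 in keratinocytes. In vivo mouse 3, highest in Pkp2, was also highest in Krt8 (103 FPKM) and Krt18 (95.5 FPKM). In none of the other markers was that library the highest. Krt7, Epcam and Cldn4 reached at most 46.2, 116 and 353 FPKM in the in vivo iSEPs. In keratinocytes they were at 47.65 to 110, 138 to 161.5 and 427 to 461.5 FPKM. Krt19 was at most 4.58 FPKM in the in vivo iSEPs and highest in ADSCs (17.8 to 45.6 FPKM). The 6 muscle markers summed to 29.6 to 73.2 FPKM in ADSCs, 0.807 to 16.3 in in vitro iSEPs, 1.12, 0.91 and 70.3 in the in vivo iSEPs and 83.6 to 101 in keratinocytes. Most of this was Acta1, while Ckm, Myog, Myh7 and Ttn were at most 0.128 FPKM in every library.

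Desmoplakin and Perp were the most abundant members. Dsp, which encodes the desmoplakin that holds keratin filaments, was at 0.331, 0.367 and 0.292 FPKM in ADSCs, 557, 511 and 647 in in vitro iSEPs, 465, 470 and 460 in the in vivo iSEPs and 376, 374 and 374 in keratinocytes. The 3 epithelial groups formed 3 bands without overlap, in vitro iSEPs above in vivo iSEPs and both above keratinocytes. Dsp was higher than in ADSCs by 8.74, 8.45 and 8.14 (SE 0.1; adjusted p 8.65e-13, 1.25e-12 and 1.88e-12), which by mean FPKM was 1731-fold, 1408-fold and 1135-fold. Perp encodes a membrane protein that desmosomes need and that is a known target of p53 and p63. It was at 2.35, 1.53 and 1.13 FPKM in ADSCs, 3542, 1992 and 3059 in in vitro iSEPs, 2498, 2118 and 1672 in the in vivo iSEPs and 2107, 2463 and 2185 in keratinocytes. Its differences from ADSCs of 10.05, 9.62 and 9.74 (SE 0.242; adjusted p 1.88e-10, 2.59e-10 and 1.94e-10) placed Perp at rank 5 among the rises of 12364 genes in each of the 3 comparisons.

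In order of mean level, Perp, Dsp, Pkp1 and Dsg3 led in each epithelial group, and Perp ranked 7 of 24537 genes in in vitro iSEPs, 12 in the in vivo iSEPs and 9 in keratinocytes. In keratinocytes the order went on with Jup, Dsc3, Pkp3, Dsc2, Dsg2 and Pkp2 (means of 188, 180, 101, 35.0, 16.2 and 12.7 FPKM), and all neighbours but Jup and Dsc3 kept apart in their 3 libraries. In in vitro iSEPs the neighbours Pkp1 and Dsg3, Dsc3 and Jup, and Dsg2 and Pkp2 overlapped. In the in vivo iSEPs only Perp, Dsp and Pkp3 were apart from both of their neighbours. In ADSCs the order was another, with Jup at a mean of 11.7 FPKM and Pkp2 at 11.4, which overlapped, then Perp at 1.67, and the remaining 7 at 0.33 or less.

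The comparison of in vitro iSEPs with keratinocytes asks how close the converted cells came to primary epidermal cells in the same medium. In vitro iSEPs had more desmoplakin RNA and less Dsg2 and Pkp2 RNA. Of the 10 members 1 was called higher and 2 lower, where 5.22% of all genes tested were called higher and 6.12% lower (11.3% in either direction). In 6 members the in vitro libraries lay above all keratinocyte libraries (17.8% of all genes) and in 2 below (23% of all genes). The median difference of the members was 0.41, against -0.017 over all genes, and 9 of the 10 had an unadjusted p under 0.05, as did 28.1% of all genes.

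Dsp was higher by 0.60 in in vitro iSEPs (SE 0.1, 95% interval 0.38 to 0.82, adjusted p 0.00451), from a mean of 571 ± 69.2 FPKM (SD, n = 3) against 375 ± 1.26, a 1.52-fold difference seen in 3 of 3 libraries. The call held without any single library but not when mouse 2 or mouse 3 was left out of all groups (adjusted p 0.111 and 0.0754). Dsg2 was lower by a difference of -1.60 (SE 0.423, interval -2.53 to -0.67, adjusted p 0.0356), 5.54 ± 3.55 FPKM against 16.2 ± 1.40, which is 2.93-fold. It missed the threshold without in vitro mouse 3 (-1.01, adjusted p 0.0586), and without keratinocyte mouse 1, 2 or 3 (adjusted p 0.103, 0.108 and 0.0878). The same held when mouse 1, 2 or 3 was left out of all groups (0.0897, 0.138 and 0.127). Pkp2 was lower by -1.36 (SE 0.328, interval -2.08 to -0.63, adjusted p 0.0241), 4.37 ± 0.918 FPKM against 12.7 ± 1.34, or 2.90-fold. It missed the threshold without in vitro mouse 1 or 3 (adjusted p 0.0553 and 0.085) and without keratinocyte mouse 1, 2 or 3 (0.0575, 0.0879 and 0.0839), its difference staying between -1.44 and -1.23. Pkp2 also missed it when mouse 2 or 3 was left out of all groups (-1.45 and -1.18, adjusted p 0.2 and 0.0652). Beside these 2 genes, the simple epithelial marker sum was 241 to 493 FPKM in in vitro iSEPs and 730 to 763 FPKM in keratinocytes, and the stromal marker sum 67.8 to 225 against 25.3 to 30.8 FPKM. Their part in the differences was not tested.

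The 7 members not called in that comparison had differences between 0.31 and 0.97. For Dsc3 (0.49, interval 0.10 to 0.89, adjusted p 0.0987), Dsg3 (0.62, 0.16 to 1.08, adjusted p 0.0791) and Pkp1 (0.54, 0.15 to 0.93, adjusted p 0.0731) the groups did not overlap. Jup (0.32, 0.05 to 0.59, adjusted p 0.114) and Pkp3 (0.33, 0.09 to 0.57, adjusted p 0.0749) did not overlap either. Dsc2 (0.97, 0.08 to 1.85, adjusted p 0.145) and Perp (0.31, -0.23 to 0.84, adjusted p 0.441) overlapped. Most of these intervals leave out 0 but none of these genes passed the adjustment over all genes.

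**Figure D2:**
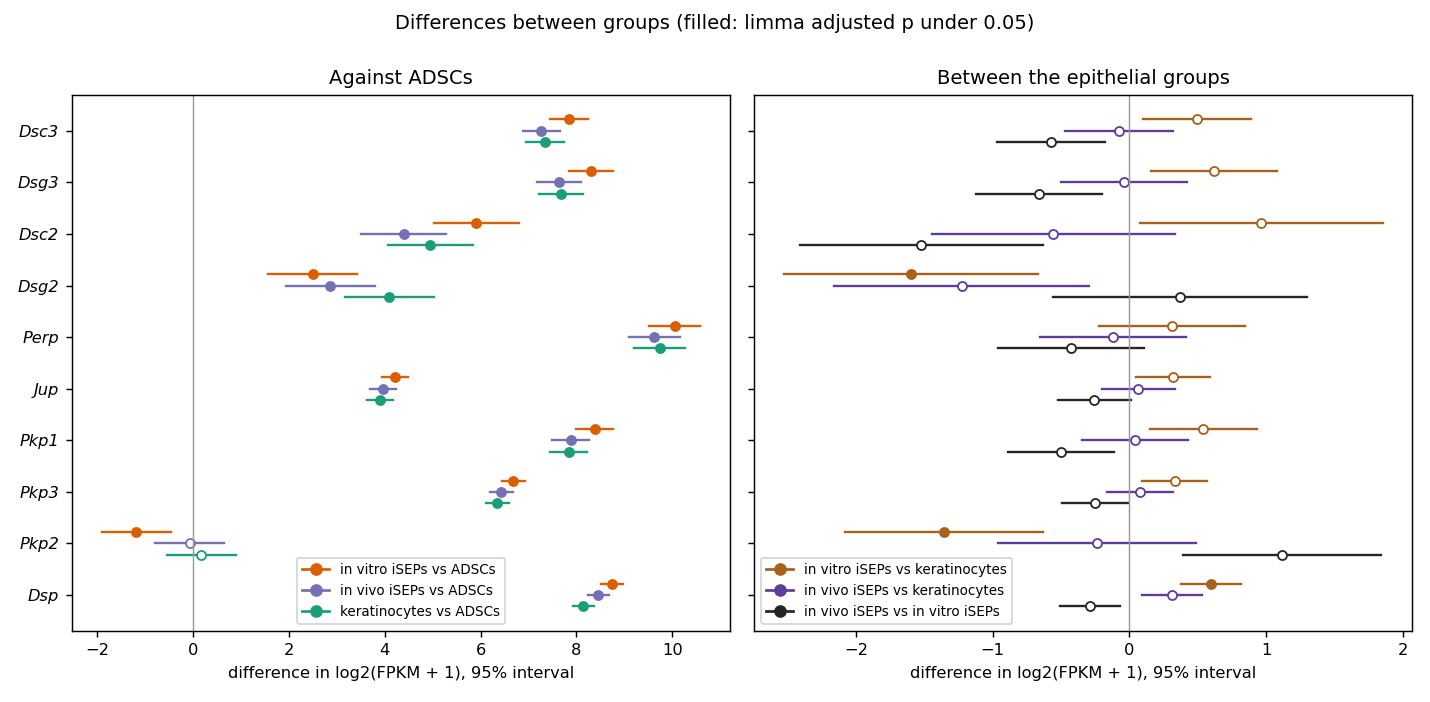
Differences in log2(FPKM + 1) between groups for the 10 desmosome genes (horizontal axis) with 95% intervals from limma, against ADSCs on the left and between the epithelial groups on the right. Filled points have an adjusted p under 0.05. On the right the only filled points are Dsp (0.60), Dsg2 (-1.60) and Pkp2 (-1.36), all in in vitro iSEPs against keratinocytes.

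In vivo iSEPs and keratinocytes differed in no desmosome gene past the threshold. By limma 0 of 10 members were called, where 7.48% of all genes were called (3.41% higher and 4.08% lower), and 2 members, Dsg2 and Dsp, had an unadjusted p under 0.05 (22.6% of all genes). Dsg2 had a difference of -1.23 (interval -2.16 to -0.30, adjusted p 0.108), at 6.71 ± 2.73 FPKM against 16.2 ± 1.40. Dsp had a difference of 0.31 (0.09 to 0.53, adjusted p 0.0891), at 465 ± 5.12 against 375 ± 1.26 FPKM. In these 2 genes alone the groups did not overlap, Dsp being higher (11.6% of all genes) and Dsg2 lower (16.2%). For the other 8 the differences ran from -0.56 for Dsc2 (-1.44 to 0.33) to 0.08 for Pkp3 (-0.16 to 0.32). Without in vivo mouse 3 still no member was called, and Pkp2 went from -0.24 (adjusted p 0.734) to -0.66 (adjusted p 0.0988). Of the genes called in this comparison 45.5% were higher in the in vivo iSEPs, or 56.5% with median scaling.

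Of the 10 members 8 had lower mean values in the in vivo than in the in vitro iSEPs, but by limma 0 were called. Of all genes 1.63% were called, 0.679% higher and 0.946% lower, and 7 members had an unadjusted p under 0.05, beside 14.9% of all genes. Groups did not overlap in 5 members on the lower side, Dsc2, Dsc3, Dsp, Jup and Pkp3 (8.64% of all genes), and in Pkp2 on the higher side (6.35%). The difference was -1.52 in Dsc2 (interval -2.41 to -0.63, adjusted p 0.0954) and 1.12 in Pkp2 (0.40 to 1.84, adjusted p 0.128; 0.70 with an adjusted p of 0.16 without in vivo mouse 3). Without in vivo mouse 1, 4 members were called, Dsc2 (-1.85, adjusted p 0.0444), Dsc3 (-0.76, 0.0345), Dsg3 (-0.91, 0.0231) and Pkp2 (1.44, 0.0403). Without in vitro mouse 2, Dsc2 was called (-1.88, adjusted p 0.0383). In vivo mouse 1 had the highest Dsc3 and Dsg3 of its group and the lowest Pkp2.

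Within families, the stratified member took the largest share in all epithelial libraries. Dsc3 made up 68.4% to 92.9% of the summed desmocollin FPKM and Dsg3 81.1% to 94% of the desmogleins. Desmoglein 2 took 5.67% to 7.16% in keratinocytes, 0.308% to 2.34% in in vitro iSEPs and 1.04% to 4.1% in the in vivo iSEPs, so that no iSEP library reached the keratinocyte range. Among plakophilins Pkp1 took 61% to 76.5% in epithelial libraries. Pkp2 took 56.3% to 69.4% in ADSCs, 0.555% to 1.16% in in vitro iSEPs, 1.41% to 5.61% in the in vivo iSEPs and 2.72% to 3.36% in keratinocytes. The 61% of Pkp1 and the 5.61% of Pkp2 were those of in vivo mouse 3. In vivo mice 1 and 2 had Pkp2 shares of 1.41% and 1.94%, below all keratinocyte libraries. The family as a whole summed to 14.1 to 21.5 FPKM in ADSCs and to 352 to 626 FPKM in the epithelial libraries, while desmocollins summed to at most 0.279 FPKM and desmogleins to at most 0.196 FPKM in ADSCs, where their shares rest on few reads.

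**Figure D3:**
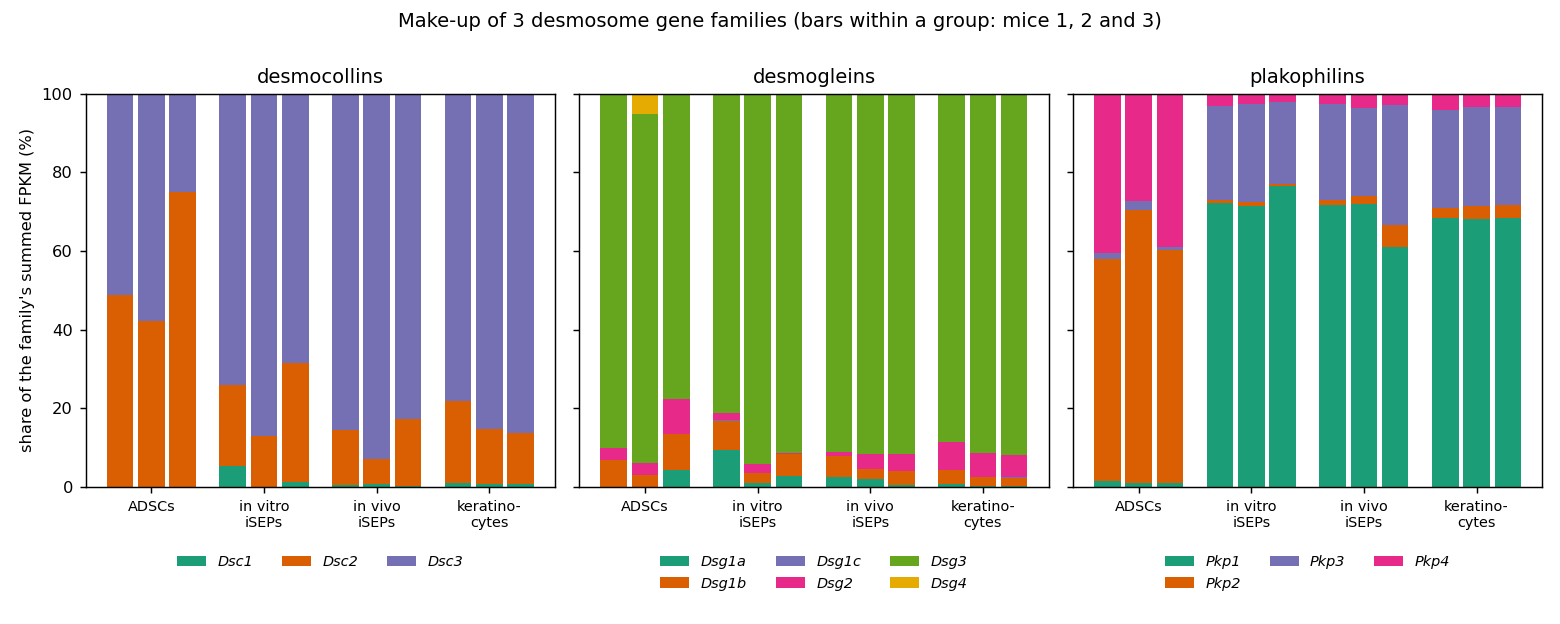
Share of each paralogue in the summed FPKM of its family (vertical axis, percent), for each library (bars, mice 1 to 3 within a group). Desmocollins and desmogleins in ADSCs sum to under 0.3 FPKM, so those bars rest on few reads; Pkp2 and Pkp4 fill most of the plakophilin bars in ADSCs and Pkp1 and Pkp3 those of the epithelial groups.

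Whether the balance between paralogues differed among the 3 epithelial groups was tested on 7 log2 ratios of FPKM, by an exact permutation test of the F statistic over the 9 libraries (1680 arrangements, smallest possible p 0.00357), with Benjamini-Hochberg adjustment over the 7. The ratio of Pkp3 to Pkp2 was 29.6 in in vitro iSEPs, 10.2 in the in vivo iSEPs and 8.02 in keratinocytes as geometric means, with an exact p of 0.025 that became 0.138 on adjustment. Pkp1 to Pkp2 was 97.5, 61.3 and 138 in the in vitro libraries, 50.6, 37.0 and 10.9 in the in vivo libraries and 25.1, 20.2 and 20.9 in the keratinocyte libraries (exact p 0.0393, adjusted 0.138). All 3 in vitro values exceeded all other values in both ratios. The range of in vivo values enclosed that of keratinocytes in both, through mouse 3 alone (10.9, and 5.41 for Pkp3 to Pkp2). In vivo mice 1 and 2 lay above every keratinocyte library in both ratios. Without in vivo mouse 3 both had an adjusted p of 0.025. In ADSCs these 2 ratios lay far on the other side, at 0.0109 to 0.0303 for Pkp3 to Pkp2 and 0.0162 to 0.0282 for Pkp1 to Pkp2.

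The ratio of Dsg3 to Dsg2 was 45.7, 40.2 and 295 in in vitro iSEPs, 87.4, 24.5 and 22.3 in the in vivo iSEPs and 12.4, 15.1 and 16.2 in keratinocytes (exact p 0.0821, adjusted 0.192). All 6 iSEP libraries were above the keratinocytes. Dsc3 to Dsc2, at geometric means of 3.8, 7.57 and 5.33, did not separate the groups (exact p 0.325, adjusted 0.569). The balance of the 2 cadherin classes was close, with desmocollins 2 and 3 at 0.776 to 0.974 times desmogleins 2 and 3 over the 9 libraries (exact p 0.632). Jup stood at 0.4 to 0.563 times the sum of Pkp1, Pkp2 and Pkp3 (exact p 0.464, adjusted 0.625), and Pkp1 at 2.01 to 3.7 times Pkp3 (exact p 0.536, adjusted 0.625).

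**Figure D4:**
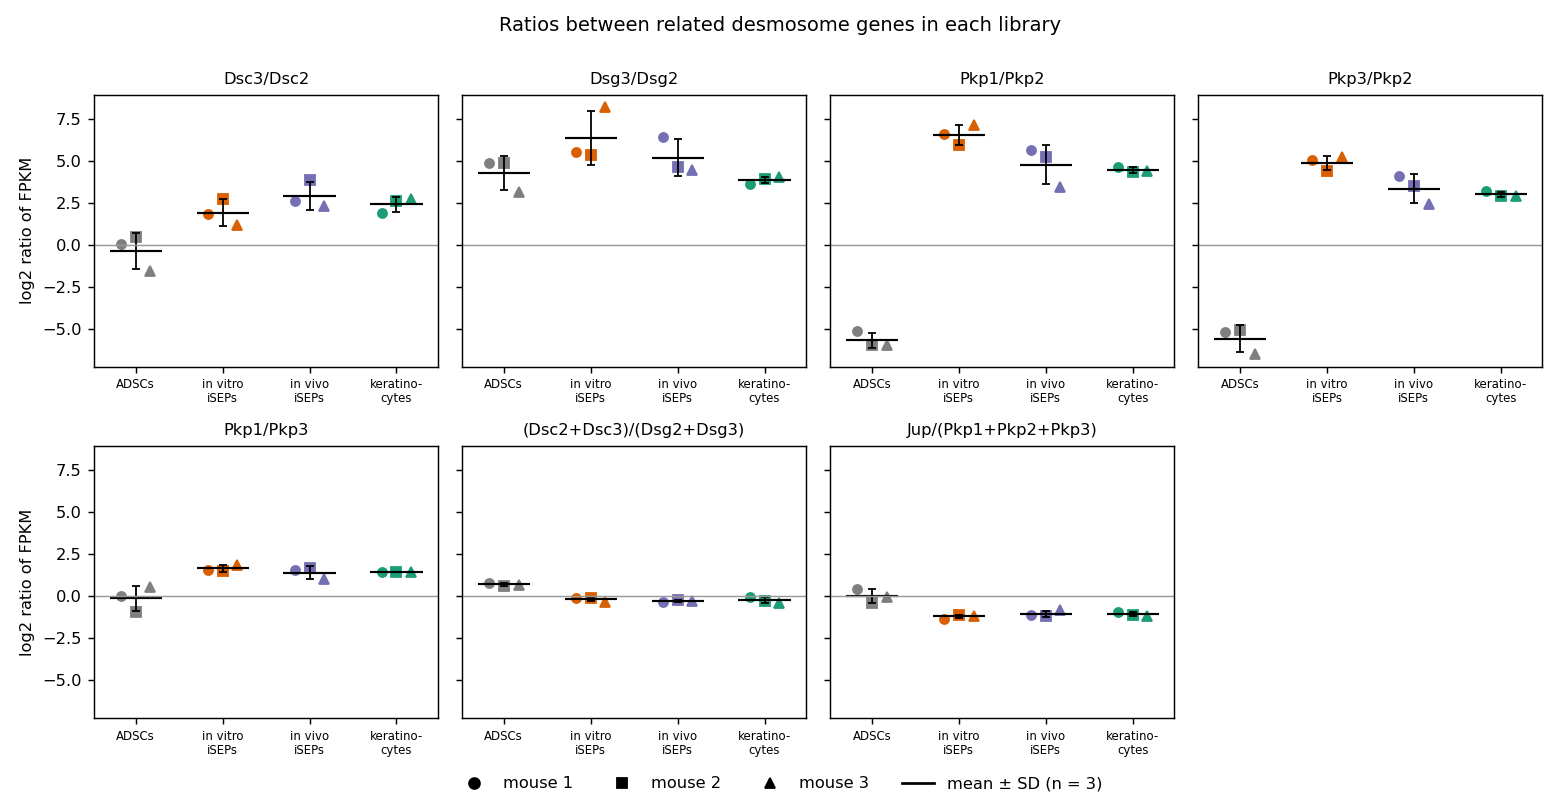
The 7 log2 ratios of FPKM between desmosome genes (vertical axis) in each library of the 4 groups, with mean ± SD (n = 3). Pkp1/Pkp2 and Pkp3/Pkp2 lie below 0 in ADSCs and above 0 in all epithelial libraries; the ADSC values of Dsg3/Dsg2 rest on 1 or 2 reads of Dsg2.

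Over the 9 epithelial libraries the members did not all move together. These correlations are descriptions over libraries that share groups and mice, with no test. Pkp2 ran against the stratified genes, with Pearson's r of -0.94 with Pkp1 (Spearman's rho -0.9), -0.92 with Dsg3 (-0.82) and -0.92 with Dsc3 (-0.9). After leaving out the 2 libraries farthest from the median of the partner gene (Pkp1, Dsg3 or Dsc3), r was -0.87, -0.82 and -0.96. Dsc3 and Dsg3 had an r of 0.91 (0.93 without 2 libraries), and Dsp and Jup, whose promoters are shown above, an r of 0.86 (0.68 without 2). Dsp and Dsg2 had an r of -0.87 (-0.72), and Dsg2 and Pkp2 an r of 0.68 (0.51). Of the other genes, Mdfi (r 0.976), Rab3d (0.97), Tmem132a (0.962), Ptpn13 (0.954) and Rgs3 (0.951) had the pattern most like the mean of the 10 members over these 9 libraries. They were picked for the highest r among all kept genes. That mean includes Pkp2 and Dsg2, which had an r of -0.86 and -0.67 with the mean of the other members. Rgs3 was low, at means of 1.13 FPKM in in vitro iSEPs, 0.334 in the in vivo iSEPs and 0.644 in keratinocytes, and higher in ADSCs (3.12).

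Of 10 further desmosome and cornified layer genes 8 could be tested, Dsg1c and Dsg4 being too low. Higher than in ADSCs were 8 in in vitro iSEPs, 6 in the in vivo iSEPs and 6 in keratinocytes, beside 32.1%, 27.6% and 32.8% of all genes, and none was lower. Not called were Dsc1 and Cdsn in the in vivo iSEPs and Dsc1 and Dsg1a in keratinocytes. Dsc1, Dsg1a, Dsg1b, Ppl and Evpl were at most 0.095 FPKM in every ADSC library. They passed the filter on low values only through the epithelial groups, so these counts are a description. Ppl, which encodes the plakin periplakin, was at 0.054 to 0.095 FPKM in ADSCs, 66.9 to 135 in in vitro iSEPs, 34.7 to 81.2 in the in vivo iSEPs and 63.4 to 98.6 in keratinocytes. Pkp4, a relative of the plakophilins that is also found outside desmosomes, was at 5.34 to 8.42 FPKM in ADSCs and 10.8 to 17.8 in the epithelial libraries. Its call in the in vivo iSEPs was lost without mouse 2 in all groups (adjusted p 0.0956). In the in vivo iSEPs, the call of Kazn (difference 0.52, adjusted p 0.0217) was lost without ADSC mouse 1 or 2 (0.0558 and 0.0817) or in vivo mouse 1 or 3 (0.0524 and 0.0688), with median scaling (0.0627) and in a fit of only the 2 groups (0.0711), and that of Dsg1a (2.36, 0.0161) without in vivo mouse 1 (0.062). Leaving mouse 1, 2 or 3 out of all groups also lost that call of Kazn (0.108, 0.0794 and 0.103), and leaving out mouse 1 or 2 that of Dsg1a (0.0596 and 0.0707). With a pseudocount of 0.1, Dsc1 was also called in the in vivo iSEPs and in keratinocytes (adjusted p 0.0117 and 0.00383), and Dsg1a in keratinocytes (0.00435). With the mouse as a block Cdsn, which encodes corneodesmosin, was also called in the in vivo iSEPs (2.39, adjusted p 0.0321, against 0.0523 without it), as it was with a pseudocount of 0.1 (0.0335) and without in vivo mouse 2 (3.39, 0.00678). Cdsn was at 78.4, 8.01 and 23.9 FPKM in in vitro iSEPs, 11.2, 1.9 and 44.5 in the in vivo iSEPs and 62.9, 41.4 and 29.6 in keratinocytes. Its call in in vitro iSEPs against ADSCs was lost without mouse 1 in all groups (adjusted p 0.073). The call of Kazn in keratinocytes against ADSCs was lost without mouse 2 in all groups (0.0685). Between in vivo iSEPs and keratinocytes Cdsn differed by -1.90 (adjusted p 0.256), and without in vivo mouse 3, the highest of its group, it was called lower (-2.87, adjusted p 0.0434).

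The cadherins of the upper epidermal layers, Dsc1 and the Dsg1 copies Dsg1a and Dsg1b, varied widely between the in vitro iSEP cultures, while Dsg1c was at most 0.211 FPKM in every library. Dsg1a was at 36.6, 3.5 and 14.4 FPKM in in vitro iSEPs, 9.05, 5.23 and 1.17 in the in vivo iSEPs and 2.23, 0.93 and 0.663 in keratinocytes, against 0 to 0.006 in ADSCs. It was higher in in vitro iSEPs than in keratinocytes by 2.66 (SE 0.698, interval 1.12 to 4.19, adjusted p 0.0344), in 3 of 3 libraries. That call was lost without in vitro mouse 1 (1.93, adjusted p 0.0895) or 3 (0.0966), and without keratinocyte mouse 1, 2 or 3 (0.0617, 0.114 and 0.115), and with no filter on low values (0.0618). It was also lost when mouse 1, 2 or 3 was left out of all groups (0.0874, 0.0894 and 0.177). The call of Dsc1 in in vitro iSEPs against ADSCs was lost when mouse 1 or 3 was left out of all groups (0.0897 and 0.113). Dsc1 was listed at 0 in all 3 ADSC libraries and was at 17.5, 0.324 and 4.83 FPKM in in vitro iSEPs against 1.73 to 2.21 in keratinocytes (difference 0.85, interval -0.66 to 2.37, adjusted p 0.456). Without in vitro mouse 2 it was called (1.84, adjusted p 0.0194). Dsg1b had a difference of 1.44 (adjusted p 0.0606), which passed with the mouse as a block (0.0379) and without in vitro mouse 2 (1.94, 0.0138). In vitro mouse 1, highest in Dsc1 and Dsg1a, also had the highest Krt1 and Krt10, keratins of differentiating epidermis, at 167 and 92.3 FPKM, and mouse 2, lowest in both, had 1.17 and 2.95 FPKM. The Dsg1 copies are nearly identical, so how the reads were split between them is uncertain.

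Evpl, which encodes envoplakin, was lower in in vivo than in in vitro iSEPs, at 16.7, 10.7 and 15.8 FPKM against 30.3, 22.1 and 45.2 (difference -1.09, SE 0.234, adjusted p 0.0471, 3 of 3 libraries). It was the only one of the 8 further genes called there, where 0.946% of all genes were called lower. The call was lost with the mouse as a block (0.0558), a pseudocount of 0.1 (0.0628), no filter on low values (0.0821), median scaling (0.0529), quantile normalization (0.0512) and a fit of only the 2 groups (0.33), and without in vitro mouse 1 or 3 (-1.11 and -0.83, adjusted p 0.0852 and 0.163) or in vivo mouse 2 (-0.90, 0.153). Leaving mouse 1, 2 or 3 out of all groups also lost it (0.117, 0.171 and 0.228).

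**Figure D5:**
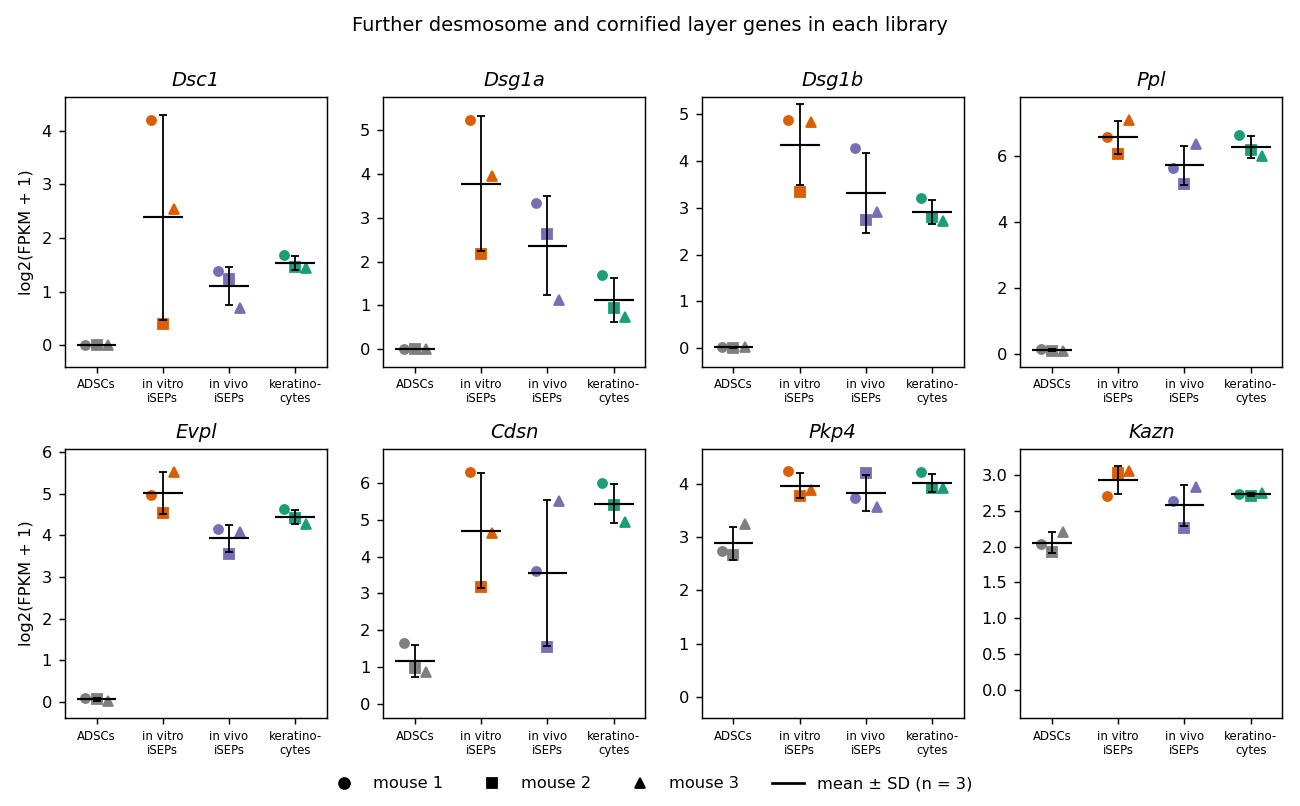
Level of 8 further desmosome and cornified layer genes in each library as log2(FPKM + 1), with mean ± SD (n = 3) for the 4 groups. Within the in vitro iSEPs, Dsc1, Dsg1a and Cdsn spread most between the mice, and mouse 1 is highest in all 3.

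The structures that neighbour the desmosome were described from lists, whose counts stand beside the shares of all genes called, 32.1% higher and 21.7% lower in in vitro iSEPs, 27.6% and 20% in the in vivo iSEPs and 32.8% and 20.7% in keratinocytes against ADSCs. Some listed genes, among them Cdh1, Itgb4 and, of the regulators below, Trp63, were under 1 FPKM in every ADSC library. Such genes passed the filter only through the epithelial groups, so the counts against ADSCs are a description. Of 14 adherens junction genes 7 were higher and 5 lower in in vitro iSEPs than in ADSCs, and 8 were higher and 4 lower in the in vivo iSEPs and in keratinocytes. Cdh1, which encodes E-cadherin, was at 0.121 to 0.17 FPKM in ADSCs and 82.6 to 274 in epithelial libraries, while Cdh11, a mesenchymal cadherin, was at 82.6 to 128 FPKM in ADSCs and 0.343 to 9.76 in epithelial libraries. Against keratinocytes, where 6.12% of all genes were lower in in vitro iSEPs and 4.08% in the in vivo iSEPs, 2 adherens junction genes were lower in in vitro iSEPs, Cdh3 (-0.49, adjusted p 0.0228) and Nectin3 (-1.09, 0.0349), and 2 in the in vivo iSEPs, Cdh3 (-0.47, 0.0347) and Cdh1 (-0.98, 0.0459).

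Of 15 intermediate filament genes, the filaments desmoplakin holds, 10 were higher and 3 lower in in vitro iSEPs than in ADSCs, 7 and 3 in the in vivo iSEPs and 9 and 3 in keratinocytes (all genes 32.1% and 21.7%, 27.6% and 20%, and 32.8% and 20.7%). Krt5 and Krt14, the keratins of basal epidermis, were at 4.9 to 6.15 FPKM in ADSCs and 3410 to 11900 in epithelial libraries. In in vitro iSEPs against keratinocytes 2 of 15 were called, both higher (5.22% of all genes), Krt10 (3.71, adjusted p 0.0302) and Vim (2.19, 0.0319). The hemidesmosome, the junction of basal cells with the matrix, had 7 of 9 genes higher in in vitro iSEPs than in ADSCs and 8 of 9 in each of the other epithelial groups, beside 32.1%, 27.6% and 32.8% of all genes. In in vitro iSEPs 3 of its 9 genes were below keratinocytes (6.12% of all genes), Cd151 (-0.96, adjusted p 0.00877), Itgb4 (-0.89, 0.00888) and Itga6 (-0.76, 0.0222), and in the in vivo iSEPs 0 of 9 were called against keratinocytes by limma, where 7.48% of all genes were, and 3 of the 9 (Cd151, Itgb4 and Plec) had an unadjusted p under 0.05 (22.6% of all genes).

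Among 20 transcription factors and enzymes known to act on desmosome genes or proteins, 12 were higher and 5 lower in in vitro iSEPs than in ADSCs, 11 and 5 in the in vivo iSEPs and 12 and 5 in keratinocytes, beside 32.1% and 21.7%, 27.6% and 20%, and 32.8% and 20.7% of all genes. Trp63, the master factor of stratified epithelia and a regulator of Perp, was at 0.02 to 0.092 FPKM in ADSCs, 105, 75.2 and 55.8 in in vitro iSEPs, 59.3, 156 and 80.7 in the in vivo iSEPs and 35.1, 32.9 and 36.7 in keratinocytes. It was above keratinocytes by 1.11 in in vitro iSEPs (adjusted p 0.0402) and by 1.35 in the in vivo iSEPs (0.0216), and reads of a delivered p63 sequence cannot be told apart from those of the cells' own gene. Twist1, a mesenchymal factor, was at 26.5 to 34.4 FPKM in ADSCs, 4.15 to 8.72 in in vitro iSEPs, 5.48 to 18.5 in the in vivo iSEPs and 0.714 to 0.723 in keratinocytes, above keratinocytes in both iSEP groups (2.19, adjusted p 0.00411, and 2.81, 0.00134). Among Klf factors, Klf5 was at 0.673 to 1.06 FPKM in ADSCs and 26.2 to 92.9 in epithelial libraries, and Klf4 at 19.8 to 26.3 and 28.2 to 83.4 FPKM.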

How the data were processed

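RNA was measured in 12 libraries, 3 mice in each of 4 groups. The authors deposited 1 table of FPKM values (reads scaled to transcript length and library size) for 24537 genes. The tools STAR 2.5.1b, FastQC 0.11.5 and HOMER, and the build mm10, are named in the submitters' processing notes. Exon reads on the transcript's strand were counted with HOMER and condensed to 1 entry per gene, per the file headers. No source used here says whether the kit marks strand, so reads of overlapping or antisense genes may be mixed. A further 3 columns match no sample given here and were not used. Depth was read from low FPKM values, which were whole multiples of 1 read (100%, tolerance 0.15 reads), and 10845 to 11349 genes reached 1 FPKM per library. No 2 libraries of a group were alike within sampling noise.

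Values were analysed as log2(FPKM + 1), pseudocount 1, in limma 3.58.1 (R 4.3.3). A gene was kept if 3 or more libraries reached 1 FPKM (12364 genes), 4 group means were fitted to all 12 libraries with a mean-dependent variance trend, and tests were two-sided with Benjamini-Hochberg adjustment over all kept genes at 0.05. The code was tested on simulated data. Ratios were tested in Python 3.11.15 with exact permutation. Sample titles name mouse 1, 2 or 3 in each group, which was read as the same 3 animals throughout, although the titles do not state this outright. Deviations from the group means correlated by -0.18 to 0.21 between libraries of the same mouse number (median 0.05, 18 pairs) and by -0.29 to 0.31 between different numbers (median -0.01). The fit with mouse as a replicate block was an alternative. The others were a pseudocount of 0.1, no filter, a filter of 5 FPKM, median and quantile scaling, only the 2 groups compared, and leaving out libraries or mice. Each group is 3 animals, so the tests set group differences against the spread between these animals and cultures. In limma that spread was shared by the 4 groups, also where the groups varied unequally.

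The members and the gene lists were chosen with earlier results of these data known. The lists were further desmosome genes, adherens junction, intermediate filaments, hemidesmosome, regulators, and markers of stromal, basal keratinocyte, simple epithelial, melanocyte, immune, endothelial and muscle cells. Named are all members and further desmosome genes, up to 3 called genes with the largest change per other list and comparison (or the most abundant where none was called), and the 5 genes most like the members' mean. A result among the regulators is not reported here.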

Additional observations from a re-analysis of the deposited data

Results flagged for a closer look

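In 5 desmosome genes a direct limma comparison between epithelial groups was called, which means that their effects against ADSCs differed. Because the groups share the ADSC libraries, the direct difference is the one given. The genes were flagged by these same calls, so the values repeat results given above and are not a second test. Between in vitro iSEPs and keratinocytes the difference on the log2 scale was -1.60 for Dsg2 (adjusted p 0.0356), 0.60 for Dsp (0.00451), -1.36 for Pkp2 (0.0241) and 2.66 for Dsg1a (0.0344). Between in vivo and in vitro iSEPs it was -1.09 for Evpl (0.0471). The calls of Dsg2, Pkp2, Dsg1a and Evpl were each lost on leaving out single libraries, and that of Dsp on leaving out mouse 2 or 3. Those of Dsg2 and Dsg1a were also lost with no filter on low values (0.0629 and 0.0618), that of Dsg2 in a fit of only the 2 groups (0.0545), and that of Evpl with another pseudocount, no filter, both scalings, the mouse block and the fit of 2 groups (0.0512 to 0.33). With 3 libraries per group, single outlying samples were not tested for.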

How the results depend on the processing

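The 9 members higher than ADSCs remained so in each epithelial group under all 16 alternatives per result. Pkp2 in in vitro iSEPs against ADSCs was lost without mouse 2, so that 9 to 10 members were called there, and 9 in in vivo iSEPs and 9 in keratinocytes throughout. The count of 0 in in vivo iSEPs against keratinocytes was unchanged throughout. Against keratinocytes, in vitro iSEPs had 3 members called, 0 to 5 when a library or mouse was left out, 2 with no filter on low values (Dsg2 lost, adjusted p 0.0629) and 4 in a fit of only the 2 groups compared (Dsc3 and Dsg3 called, Dsg2 lost at 0.0545). In vivo against in vitro iSEPs had 0 called, and 0 to 4 when a library or mouse was left out. Leaving out libraries or mice changes both the estimate and the number of samples, and beyond that the cause was not tested. The replicate block left the member counts at 10, 9, 9, 3, 0 and 0 and no member's call changed. Over all genes 201 were called in in vivo against in vitro iSEPs in the fit as reported, 128 with the block, 138 with no filter on low values and 1 in a fit of only those 2 groups. The same fit of 2 groups called 472 rather than 925 genes in in vivo iSEPs against keratinocytes. Leaving out a library or mouse gave 1 to 348 genes in the first of these comparisons, 32 to 1669 in the second, and 171 to 1169, beside 1403, in in vitro iSEPs against keratinocytes. Without mouse 2 the counts against ADSCs went from 6657 to 3642 in in vitro iSEPs, from 5888 to 2870 in in vivo iSEPs and from 6616 to 3274 in keratinocytes.

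The ratio differences between the highest and lowest group, when a library or mouse was left out, ran from 1.78 to 2.4 for Pkp1/Pkp2 and 1.68 to 2.12 for Pkp3/Pkp2, both with an adjusted p of 0.025 without in vivo mouse 3 (2.09 and 1.88). They ran from 0.53 to 1.41 for Dsc3/Dsc2, 1.57 to 3.04 for Dsg3/Dsg2, 0.02 to 0.17 for the cadherin classes, 0.03 to 0.26 for Jup, and -0.07 to 0.45 for Pkp1/Pkp3, which reversed to -0.07 without mouse 3. Permuting within mice (replicate block) gave adjusted p of 0.292 for Pkp1/Pkp2 and Pkp3/Pkp2. Low genes rest on few reads, 1 or 2 for Dsg2 in ADSCs, and members varied more between in vivo iSEP libraries (median SD 0.399 on the log2 scale) than between keratinocyte libraries (0.105), as did all genes (0.253 and 0.117).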
